A study of Homo sapiens with 9 samples.

Results

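ANKRD37, KISS1R and SAMSN1 are 3 of the 22439 genes on the arrays with a RefSeq symbol, and 5 of the 58201 probes map to them. They were selected on their large fall with siHIF1A, so their levels in that comparison are given as a description, with no test. The members are every non-control probe whose accession is assigned to one of these symbols by RefSeq. ANKRD37 and KISS1R have 1 probe each and SAMSN1 has 3, and each probe is given apart. The arrays hold RNA from OEC-M1, a head and neck squamous cell carcinoma (HNSCC) line, with 3 arrays in each of 3 groups. All groups were transfected for 72 h and kept at 1% O2 for 18 h, so there is no normoxic sample and every comparison is made within hypoxia. The groups received a control siRNA (siControl, si-Control), an siRNA against GATA3 (siGATA3, GATA3 knockdown) or an siRNA against HIF1A (siHIF1A, HIF-1α knockdown). By the study's legends 1 siRNA was used against each target on these arrays, so the effect of losing the target and any other effect of that siRNA cannot be told apart. The labels do not say that replicates came from separate cultures, so the spread between arrays may be technical.

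HIF-1 is a heterodimer whose α subunit is hydroxylated and degraded when oxygen is plentiful and accumulates in hypoxia, where it binds short motifs in DNA and activates genes of glycolysis, pH control and survival. ANKRD37 encodes a small ankyrin repeat protein and is known as a direct HIF-1 target. KISS1R encodes the Gq-coupled receptor for kisspeptins, the peptides made from KISS1, which were first known as suppressors of metastasis and later as regulators of the reproductive axis. SAMSN1 (HACS1, SLY2) encodes an adapter protein with SH3 and SAM domains, studied mostly in B cells, where it restrains activation.

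The promoters are shown because the 3 genes were low together in HIF-1α knockdown and HIF-1 binds short motifs near its target genes. RefSeq (GRCh38.p14) places ANKRD37 at chr4:185396841-185400723, KISS1R at chr19:917333-921005 and SAMSN1 at chr21:14485228-14659417. The 250 bases before each transcript start in the RefSeq promoter table were searched on both strands for ACGTG and GCGTG, the core letters of the hypoxia response element. The table used here gave 1 such window for ANKRD37 and 4 for SAMSN1, and none was used for KISS1R. The ANKRD37 window (chr4:185396591-185396840, plus strand) lies inside the span of LRP2BP, and is printed 5′ to 3′ with the matches in capitals. The 4 SAMSN1 windows belong to starts inside the span of the gene, which reaches farther upstream. The one farthest upstream (chr21:14658847-14659096, minus strand) is printed below it for comparison.
ANKRD37: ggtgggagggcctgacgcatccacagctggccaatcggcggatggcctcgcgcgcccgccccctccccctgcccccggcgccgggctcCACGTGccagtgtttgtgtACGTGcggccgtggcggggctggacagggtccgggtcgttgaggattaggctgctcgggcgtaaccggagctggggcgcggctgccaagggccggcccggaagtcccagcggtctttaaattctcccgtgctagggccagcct
SAMSN1: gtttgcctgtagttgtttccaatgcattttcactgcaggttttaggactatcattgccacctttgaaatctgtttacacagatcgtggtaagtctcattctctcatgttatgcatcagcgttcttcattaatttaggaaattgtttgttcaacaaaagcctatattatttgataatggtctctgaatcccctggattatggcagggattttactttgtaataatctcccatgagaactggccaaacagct
The ANKRD37 window held 3 matches to ACGTG. Of these, 2 overlap in the palindrome CACGTG, read once on each strand at 162 and 161 bases before the start, and the other begins 143 bases before it. The 4 SAMSN1 windows held 0 matches to either motif. ACGTG was present in 18.5% of 35116 promoter windows of the same length, GCGTG in 32.2% and either motif in 43.2%. Base composition differed too, with 71.6% G and C in the ANKRD37 window and 35.2% to 39.6% in the SAMSN1 windows, against a median of 58% over all windows. A match is a run of letters and does not show binding, and its absence concerns only this window.

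The transcript targeted by each siRNA was lower in its own group. Levels here are log2 intensity after background correction and quantile normalization, and a difference of 1 is a doubling. HIF1A has 2 probes, of which only the brighter is given here. This HIF1A probe was at 16.73 ± 0.5 (SD, n = 3) in siControl, 16.68 ± 0.563 in siGATA3 and 14.41 ± 0.246 in siHIF1A. Its log2 difference was -2.32 ± 0.35 (SE) in HIF-1α knockdown (limma adjusted P = 0.305) and -0.05 in GATA3 knockdown (adjusted P = 1). The GATA3 probe was at 11.10 ± 0.385 in siControl, 9.84 ± 0.489 in siGATA3 and 10.73 ± 0.407 in siHIF1A. It fell by 1.27 ± 0.336 (SE) in GATA3 knockdown (called at the unadjusted threshold given below, limma adjusted P = 1) and differed by -0.37 in HIF-1α knockdown (adjusted P = 0.829). The replicate number was also the slide number, so each of the 3 slides held 1 array of every group, and differences within a slide are given below. The median spot signal of an array ran from 992.5 to 2807.5 in siControl, 1410 to 2452 in siGATA3 and 2132 to 3560 in siHIF1A. Between 73.3% and 88% of probes on an array were marked well above background by the scanner software.

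A probe was called at an unadjusted P of 0.05 in the limma fit, the threshold of the study's methods. In HIF-1α knockdown 3.43% of 57741 probes were called lower and 1.91% higher, and 1 probe, of NPPB, passed after Benjamini-Hochberg adjustment (named after its value was seen). With the slide as a replicate block 12 probes passed, and none did with 1 probe per gene, in the separate 6-array fit, without siControl replicate 1 or 2, or without any 1 of the siHIF1A replicates. In GATA3 knockdown 1.38% of 58161 probes were called lower and 1.77% higher, 1827 probes in all at the unadjusted threshold, and 0 passed after adjustment in limma. With the slide as a replicate block the calls were 5048 in HIF-1α knockdown, against 3080 without it, and 3212 in GATA3 knockdown, against 1827. Both comparisons share the siControl arrays. The low levels of the 3 genes in HIF-1α knockdown follow from how they were chosen, and nothing is read from them against these shares.

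ANKRD37 had a high level in every siControl and siGATA3 array and a lower one in every siHIF1A array. Its log2 intensity was 15.37, 14.47 and 15.63 in siControl replicates 1, 2 and 3. In siGATA3 it was 15.87, 13.64 and 15.09, and in siHIF1A 12.70, 11.69 and 12.93. The siHIF1A arrays lay below all 6 others, while the siGATA3 and siControl arrays overlapped. Slide 2 gave the lowest value in each of the 3 groups. The probe was well above background on all 9 arrays and saturated on none.

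The ANKRD37 group means were 15.16 ± 0.612 (SD, n = 3) in siControl, 14.87 ± 1.13 in siGATA3 and 12.44 ± 0.662 in siHIF1A. The difference of HIF-1α knockdown from siControl was -2.72 ± 0.563 (SE) on the log2 scale, a 6.58-fold lower intensity. Within slides the 3 differences were -2.68, -2.78 and -2.70, a narrower range than the levels themselves covered. Of the 57741 probes with a value, ANKRD37 had the rank 4 counted from the largest fall. GATA3 knockdown differed from siControl by -0.29 ± 0.563 (SE), with a 95% interval from -1.55 to 0.96 (limma adjusted P = 1). The within-slide differences were 0.50, -0.83 and -0.54, so 2 of 3 were lower. Without siGATA3 replicate 2 the difference turned to 0.32.

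KISS1R, the receptor, passed from a measured level to one that the scanner software did not mark well above background. In siControl its log2 intensity was 10.26, 10.17 and 11.45, in siGATA3 10.22, 9.65 and 10.71, and in siHIF1A 7.92, 7.94 and 8.49. All 6 siControl and siGATA3 arrays were marked well above background, and 0 of the 3 siHIF1A arrays were. The siHIF1A arrays again lay below all others, and siGATA3 again overlapped siControl. In scanner units the median spot signal was 1637, 1183 and 1356 in siControl, over local backgrounds of 63, 82 and 73. In siHIF1A it was 377.5, 183 and 386, over local backgrounds of 106.5, 44.5 and 74.

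The KISS1R group means were 10.625 ± 0.715 (SD, n = 3) in siControl, 10.19 ± 0.534 in siGATA3 and 8.11 ± 0.322 in siHIF1A. The siHIF1A level is only a bound, and by the group means KISS1R was at least 5.70-fold lower there than in siControl. This bound leaves out the spread between arrays, and with an array left out the log2 difference ranged from -2.74 to -2.10. On each of the 3 arrays the probe's own signal exceeded the lowest signal of any probe marked well above background, so this bound equals the fold between the means, a log2 difference of -2.51 ± 0.399 (SE). By slide the differences were -2.34, -2.23 and -2.96, and the probe had the rank 9 from the largest fall. In GATA3 knockdown the difference was -0.43 ± 0.399 (SE), with a 95% interval from -1.32 to 0.46 (limma adjusted P = 1). It was lower on 3 of 3 slides, by -0.03, -0.52 and -0.74. With each array's processed signal set to its 75th percentile in place of quantile normalization, the HIF-1α knockdown difference was -3.34.

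**Figure D1:**
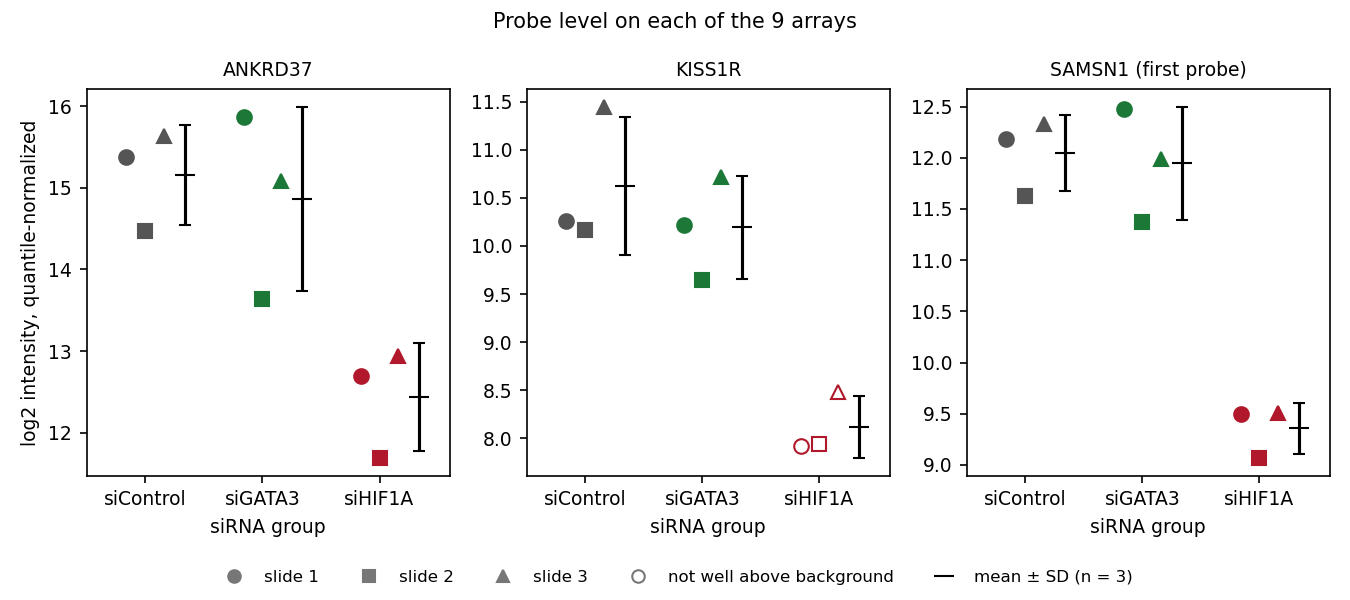
Log2 intensity of the ANKRD37, KISS1R and first SAMSN1 probe (vertical axis, quantile-normalized) on each of the 9 arrays, by siRNA group. Symbols mark the slide, open symbols an array where the probe was not well above background, and bars the mean ± SD of 3 arrays. In each panel the 3 siHIF1A arrays lie below the 6 others, and the siGATA3 and siControl arrays overlap.

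SAMSN1, the adapter, was measured by 3 probes that did not move alike. The first probe is annotated to 1 RefSeq transcript and the other 2 to a different one. RefSeq lists 12 transcripts for the gene, 7 of them curated coding transcripts. The first probe read 12.19, 11.62 and 12.33 in siControl, 12.48, 11.37 and 11.99 in siGATA3, and 9.50, 9.07 and 9.51 in siHIF1A. It was well above background on all 9 arrays, and the siHIF1A arrays lay below all others.

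The first SAMSN1 probe had group means of 12.05 ± 0.374 (SD, n = 3) in siControl, 11.95 ± 0.555 in siGATA3 and 9.36 ± 0.252 in siHIF1A. The difference in HIF-1α knockdown was -2.69 ± 0.328 (SE), a 6.45-fold lower intensity with the rank 5 from the largest fall. The slides gave -2.69, -2.56 and -2.82. In GATA3 knockdown it was -0.10 ± 0.328 (SE), with a 95% interval from -0.83 to 0.63 (limma adjusted P = 1), and 0.29, -0.25 and -0.34 by slide. The sign of this small difference turned without siControl replicate 3 (0.04) and without siGATA3 replicate 2 (0.19).

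The second SAMSN1 probe was also well above background on all 9 arrays and showed no such fall. It read 9.87, 9.76 and 9.07 in siControl, 9.0003, 10.10 and 9.02 in siGATA3, and 9.76, 9.42 and 9.96 in siHIF1A. The 3 groups overlapped, and the 3 lowest values were on siControl replicate 3, siGATA3 replicate 1 and siGATA3 replicate 3. Those were also the 3 arrays with the lowest median spot signal (992.5, 1627 and 1410), and the part of array brightness in these values was not tested. The log2 difference was 0.15 ± 0.356 (SE) in HIF-1α knockdown and -0.19 ± 0.356 in GATA3 knockdown (limma adjusted P = 1).

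The third SAMSN1 probe was dimmer. It was well above background on 3 siControl, 1 siGATA3 and 2 siHIF1A arrays. Its values spanned 8.21 to 8.61 in siControl, 8.14 to 8.68 in siGATA3 and 8.32 to 8.64 in siHIF1A, overlapping throughout. The log2 difference was 0.05 ± 0.243 (SE) in HIF-1α knockdown and -0.00 ± 0.243 in GATA3 knockdown (limma adjusted P = 1). Over the 9 arrays the first probe had a Pearson r of -0.415 with the second and -0.289 with the third, and the other pair had 0.357. These are descriptions over arrays that share their groups. The 6.45-fold difference of SAMSN1 therefore rests on 1 of its 3 probes.

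**Figure D2:**
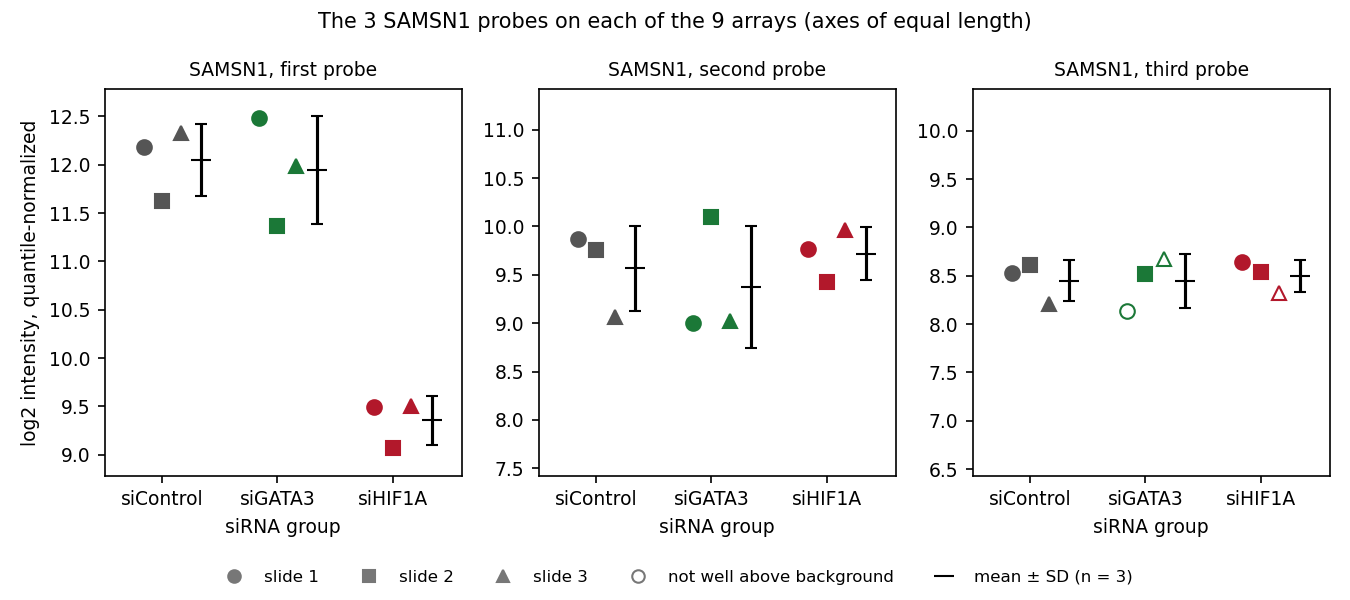
Log2 intensity (vertical axis, quantile-normalized, of equal length in each panel) of the 3 SAMSN1 probes on the 9 arrays, by siRNA group. Symbols mark the slide, open symbols arrays not well above background, and bars the mean ± SD of 3 arrays. The siHIF1A arrays are low for the first probe, at 9.07 to 9.51, and overlap the other groups for the remaining probes.

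Set side by side, the differences from siControl in GATA3 and in HIF-1α knockdown were -0.29 and -2.72 for ANKRD37, -0.43 and -2.51 for KISS1R, and -0.10 and -2.69 for the first SAMSN1 probe. The direct difference of siGATA3 over siHIF1A was 2.43 ± 0.563 (SE) for ANKRD37, 2.08 ± 0.399 for KISS1R and 2.59 ± 0.328 for the first SAMSN1 probe. It was positive on all 3 slides for each of them, and the arrays of both groups did not overlap. These differences use the siHIF1A arrays on which the genes were chosen and carry no test. The intervals in GATA3 knockdown do not show that GATA3 siRNA left the genes unaffected. They reached down to -1.55 for ANKRD37, -1.32 for KISS1R and -0.83 for the first SAMSN1 probe in the fit without a block. With the slide as a replicate block the differences were the same and their SEs smaller, at 0.297, 0.251 and 0.237 in that order.

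**Figure D3:**
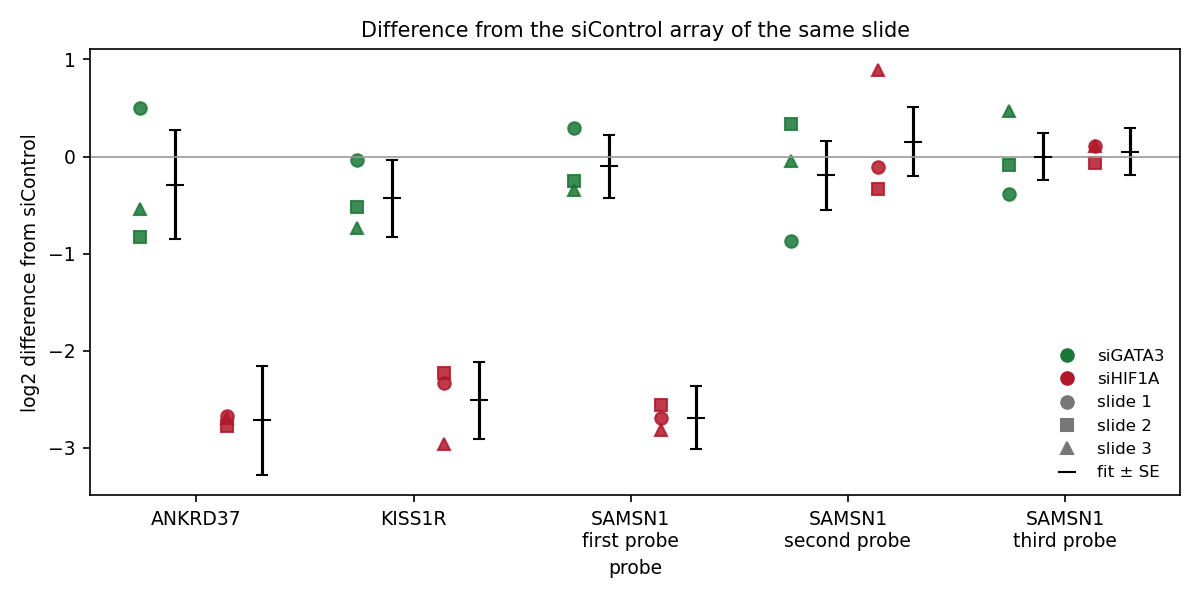
Log2 difference from the siControl array of the same slide (vertical axis) for the 5 probes, with siGATA3 in green and siHIF1A in red. Symbols are the 3 slides and bars the difference in the fit ± SE. The siHIF1A differences of ANKRD37, KISS1R and the first SAMSN1 probe lie between -2.23 and -2.96, and those of siGATA3 between -0.83 and 0.50.

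The 3 genes were close to one another in their pattern over the arrays, which their selection on siHIF1A in part fixes. Over the 9 arrays the Pearson r was 0.966 between ANKRD37 and SAMSN1, 0.945 between KISS1R and SAMSN1 and 0.921 between ANKRD37 and KISS1R, using the first SAMSN1 probe. The siHIF1A arrays stand apart from the others. Over the 6 siControl and siGATA3 arrays, r was 0.989, 0.606 and 0.643 in the same order. Without the siHIF1A arrays r was thus no lower for ANKRD37 with SAMSN1 and was lower for both pairs with KISS1R. The points share arrays and slides, and no test was made.

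The genes with the most similar pattern were taken from 17527 genes with a RefSeq symbol, locus names included. All of these were marked well above background on each array of at least 1 group. The choice of ANKRD37, KISS1R and SAMSN1 on the siHIF1A arrays in part fixes their r with HIF1A and other genes low there. The 6-array r below is for genes picked by the 9-array r, which includes those 6 arrays, so it is no separate check. For ANKRD37 the most similar genes were ARLN (r = 0.974 over 9 arrays), PER1 (0.971), HIF1A itself (0.969), SLC6A5 (0.967) and PPP1R3C (0.962). PER1 is a repressor of the circadian clock, SLC6A5 a glycine transporter and PPP1R3C a subunit that directs protein phosphatase 1 to glycogen. Over the 6 arrays without siHIF1A the r with ANKRD37 was 0.894 for ARLN, 0.975 for PER1, 0.914 for HIF1A, 0.849 for SLC6A5 and 0.876 for PPP1R3C.

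For KISS1R the most similar genes were SAMTOR (r = 0.996), CA9 (0.989), CDC42EP2 (0.98), SYDE1 (0.977) and EFNA3 (0.977), and 1 gene with only a locus name also ranked among them. SAMTOR is a sensor of S-adenosylmethionine upstream of mTORC1, CA9 the membrane carbonic anhydrase used as a marker of hypoxia, and EFNA3 an ephrin ligand. Over the 6 arrays without siHIF1A, r with KISS1R was 0.978 for SAMTOR, 0.95 for CA9, 0.935 for CDC42EP2, 0.856 for SYDE1 and 0.928 for EFNA3. For the first SAMSN1 probe they were HIF1A (0.991), PFKFB1 (0.982), ALDOC (0.973), LEISA1 (0.968) and BNIP3 (0.966). PFKFB1 sets fructose 2,6-bisphosphate, ALDOC is a glycolytic aldolase and BNIP3 a mitophagy receptor. Without the siHIF1A arrays, r with SAMSN1 was 0.91 for HIF1A, 0.859 for PFKFB1, 0.665 for ALDOC, 0.51 for LEISA1 and 0.623 for BNIP3.

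The HIF-1 pathway around these genes was read from a list of 49 target genes, of which 46 had a named probe. In HIF-1α knockdown 30 of the 46 were called lower and 1 higher, against 3.43% and 1.91% of all probes, and the list's median log2 difference was -1.19, against -0.02 over all probes. The 4 lower genes with the smallest P were BNIP3, ALDOC, FAM162A and EFNA3. BNIP3 was at 17.18 ± 0.404 (SD, n = 3) in siControl and 14.99 ± 0.251 in siHIF1A, a difference of -2.18 (limma adjusted P = 0.196). The other 3 differed by -1.84 (ALDOC), -2.41 (FAM162A, a mitochondrial protein) and -1.67 (EFNA3), each with an adjusted P of 0.306. The gene called higher was CA12, a carbonic anhydrase, at least 2.25-fold higher in siHIF1A since no siControl array measured it well above background (adjusted P = 0.674). In GATA3 knockdown the median of the list was 0.02, and 1 gene was called lower, EGLN3, a HIF prolyl hydroxylase (-1.12, limma adjusted P = 1), named after its value was seen. In that comparison 1 listed gene was called higher, and over all probes 1.38% were called lower and 1.77% higher. The brightest probes of ANKRD37, SAMSN1 and KISS1R lay below all 46 listed genes in HIF-1α knockdown, an order that their choice for large falls already favours.

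**Figure D4:**
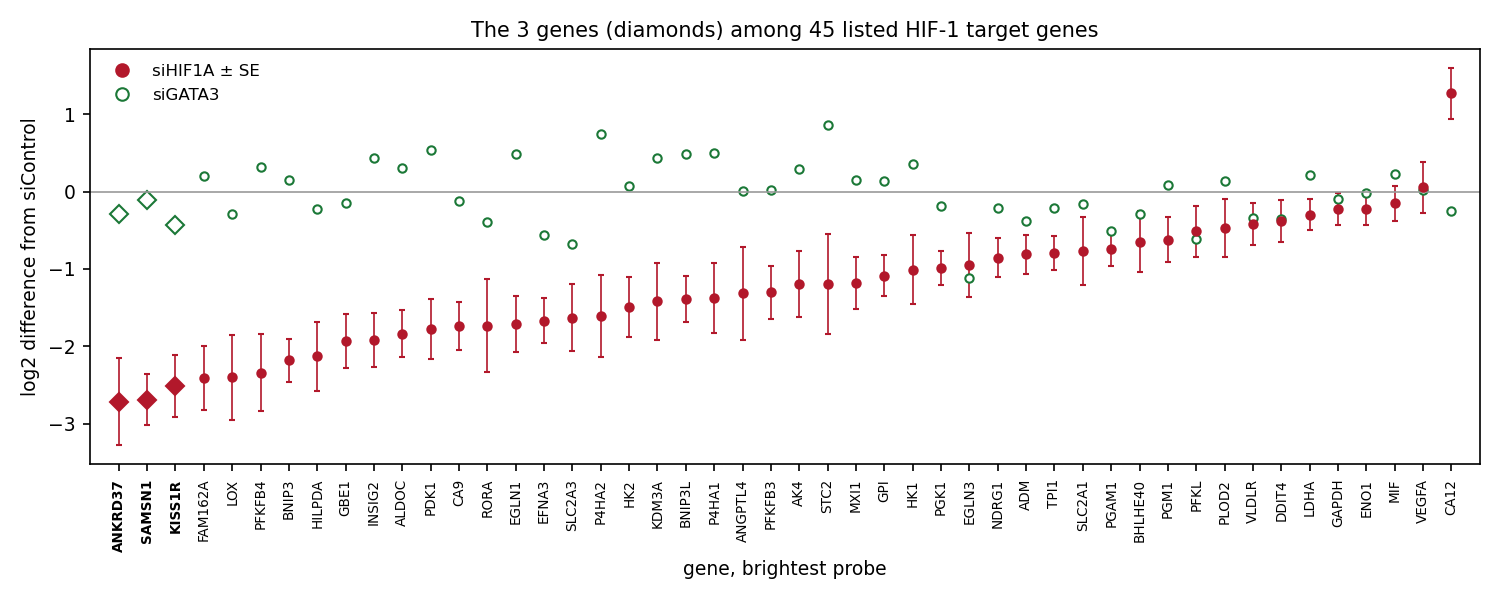
Log2 difference from siControl (vertical axis) of the brightest probe of 45 of the listed HIF-1 target genes and of the 3 genes (diamonds, bold names), ordered by the difference in siHIF1A. Filled red points are siHIF1A ± SE and open green points siGATA3. The 3 genes are at -2.72, -2.69 and -2.51, and the lowest listed gene, FAM162A, at -2.41.

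The ligand and signalling partners of KISS1R were read from a list of their own. KISS1, the gene of the ligand, was at 10.82 ± 1.35 (SD, n = 3) in siControl, 10.64 ± 1.12 in siGATA3 and 11.58 ± 0.465 (n = 2) in siHIF1A, where 1 spot was marked non-uniform and dropped. Its log2 difference in HIF-1α knockdown was 0.76 (limma adjusted P = 0.836). GNAQ and GNA11, the G protein α subunits through which the receptor acts, differed by -0.42 (adjusted P = 0.829) and -0.12 (adjusted P = 0.933). Of 32 listed genes of KISS1R signalling and related RFamide and galanin receptors, 0 were called in either direction in HIF-1α knockdown by limma at the unadjusted threshold, with a median of -0.18. At the shares over all probes, 3.43% lower and 1.91% higher, a list of this size would hold few calls, so the count is near the background. In GATA3 knockdown 1 was called lower (PRLHR, the prolactin-releasing peptide receptor, -0.62) and 1 higher (ITPR1, the inositol trisphosphate receptor of calcium stores, 1.96). Over all probes 1.38% were called lower and 1.77% higher there. PRLHR and ITPR1 both had an adjusted P of 1 and were named after their values were seen.

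Among 18 listed genes of the SLY adapter family and B cell receptor signalling, 2 were called lower in HIF-1α knockdown and 0 higher, beside 3.43% and 1.91% of all probes, with a median of -0.18. A count this small is not read as a result about the list. The genes were SASH1 and SASH3, the other members of the adapter family. SASH1 was at 12.77 ± 0.52 (SD, n = 3) in siControl, 12.57 ± 0.714 in siGATA3 and 11.58 ± 0.153 in siHIF1A, a difference of -1.19 (limma adjusted P = 0.828). SASH3 (SLY1) was at 9.63 ± 0.218, 9.79 ± 0.202 and 9.09 ± 0.234 in the same order, a difference of -0.54 (adjusted P = 0.828), just inside the unadjusted threshold. In GATA3 knockdown neither was called, at -0.20 and 0.16 (adjusted P = 1). The adapter LCP2 (-0.69) was called lower and the exchange factor VAV1 (0.77) higher there, each with an adjusted P of 1 and named after their values were seen. Of all probes 1.38% were called lower and 1.77% higher in GATA3 knockdown.

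Among 25 listed ankyrin repeat proteins, other than ANKRD37, 1 was called lower and 1 higher in HIF-1α knockdown. These counts were near the 3.43% and 1.91% of all probes, and the median log2 difference was -0.14. ANKRD9, part of a ubiquitin ligase, was at 14.52 ± 0.607 (SD, n = 3) in siControl and 13.55 ± 0.344 in siHIF1A (a difference of -0.97). ANKRD52, a subunit of protein phosphatase 6, was at 13.22 ± 0.133 and 13.92 ± 0.172 (0.70), and both had a limma adjusted P of 0.828. In GATA3 knockdown ANKRD52 was called lower, by 0.50 (adjusted P = 1), and no other gene of the list was called. Over all probes 1.38% were called lower and 1.77% higher in that comparison. With the slide as a replicate block, 8 genes of these 3 lists were called in HIF-1α knockdown, against 4 without it.

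The genes on either side of each of the 3 were taken as the 3 nearest with a probe in each direction. Of the 18 neighbours, 2 were called in HIF-1α knockdown, both lower, against 3.43% of all probes. CFAP96 (chr4:185408434-185449826), a gene named for cilia and flagella, starts beyond the end of ANKRD37. It was at 11.09 ± 1.04 (SD, n = 3) in siControl, 11.36 ± 0.376 in siGATA3 and 8.77 ± 0.562 in siHIF1A, a log2 difference of -2.32 ± 0.493 (SE, limma adjusted P = 0.48). Its siHIF1A arrays spanned 8.16 to 9.27 and lay below its siControl arrays, from 10.32 to 12.27, and below siGATA3. It was well above background on 2 of 3 siHIF1A arrays.

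UFSP2 (chr4:185399537-185425964), a protease of the UFM1 pathway, overlaps the end of ANKRD37 and the start of CFAP96. It was at 12.90 ± 0.458 (SD, n = 3) in siControl and 12.34 ± 0.141 in siHIF1A, a difference of -0.56 (limma adjusted P = 0.828, not called). LRP2BP (chr4:185363872-185397287), which overlaps the start of ANKRD37, was not well above background on any array. The remaining neighbours of ANKRD37 differed by -0.30 (SLC25A4), 0.40 (CFAP97) and 0.11 (CCDC110) and were not called. In order of their start, the differences in HIF-1α knockdown were -2.72 for ANKRD37, -0.56 for UFSP2 and -2.32 for CFAP96, and the difference between UFSP2 and the other genes was not tested.

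Beside KISS1R, ARID3A, a DNA-binding protein of the ARID family, was called lower by 0.78 ± 0.271 (SE, limma adjusted P = 0.828). The other 5, CFD, MED16, R3HDM4, WDR18 and GRIN3B, differed by -0.47 to -0.06 and were not called. Around SAMSN1 none of the 6 was called in HIF-1α knockdown by limma at the unadjusted threshold, with differences from -0.59 (RBM11, with 2 siControl values after a non-uniform spot was dropped) to 0.44 (SAMSN1-AS1). SAMSN1-AS1 (chr21:14582202-14598303) is an antisense gene within the SAMSN1 span. Its level was 9.17 ± 0.674 (SD, n = 3) in siControl and 9.61 ± 0.285 in siHIF1A. In GATA3 knockdown HSPA13, a chaperone of the HSP70 family, was called higher by 1.29 (adjusted P = 1).

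**Figure D5:**
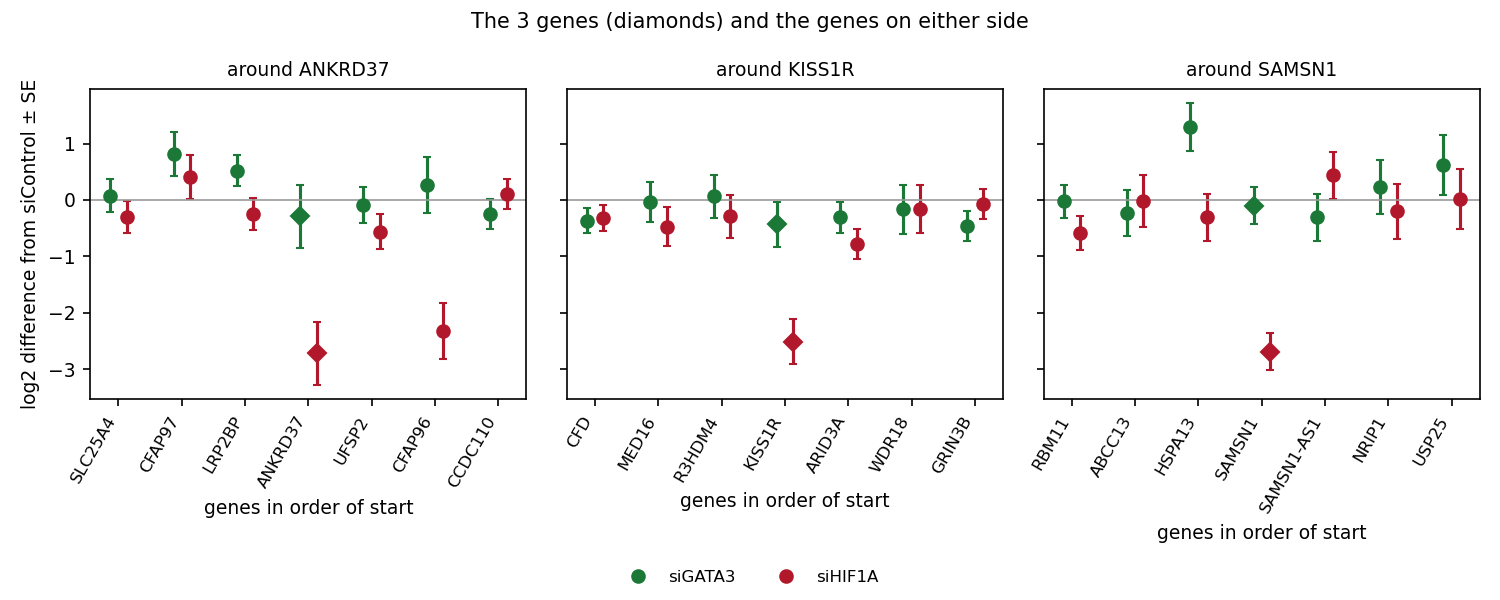
Log2 difference from siControl ± SE (vertical axis) of each of the 3 genes (diamonds, brightest probe) and of the 3 genes with a probe on either side (circles), in order of their start on the chromosome. Green is siGATA3 and red siHIF1A. In siHIF1A, CFAP96 at -2.32 lies nearest to the 3 genes, which are at -2.72, -2.51 and -2.69, and the next lowest neighbour is ARID3A at -0.78.

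The label of the cells was set against marker genes. Of 14 squamous epithelial markers 12 were well above background on all siControl arrays, and KRT5 was so on no array. Of 15 measured blood cell markers 12 were, while MS4A1 and SPI1 were so on no array, and of 11 fibroblast and endothelial markers 9 were, with COL3A1 and LUM on none. Since 81.6% of all probes were well above background on the 3 siControl arrays, this mark does not separate the lineages here. SAMSN1 is best known from blood cells, so the blood list is given beside it. Its summed unlogged intensity was 69200 to 154500 in siControl, 90720 to 144800 in siGATA3 and 153500 to 160200 in siHIF1A. PTPRC, read by the brightest of its 5 probes, was the brightest gene of this list and weighed most in the sum. This probe was at 16.13 in siControl and 16.62 in siHIF1A. By gene, the list's median log2 difference in HIF-1α knockdown was -0.155. In HIF-1α knockdown 1 blood marker was called lower, ITGB2, at least 2.01-fold (limma adjusted P = 0.828), named after its value was seen. Another 1 was called higher, and over all probes 3.43% were called lower and 1.91% higher. The summed squamous markers ran from 298500 to 982200, 287300 to 688100 and 385100 to 709900 in the same order of groups, and 0 of the 14 were called in either comparison by limma at the unadjusted threshold. Over all probes the shares were 3.43% lower and 1.91% higher in HIF-1α knockdown, and 1.38% and 1.77% in GATA3 knockdown. A list of this size would hold few calls, so the count is not read as a result. The fibroblast and endothelial sum was 57500 to 151900, 80540 to 116400 and 95560 to 122000, with DCN called lower in GATA3 knockdown (-1.08, adjusted P = 1), beside 1.38% of all probes. The part of these lists in the levels of the 3 genes was not tested.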

How the data were processed

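RNA of 9 samples was hybridised to 1-colour Agilent arrays. The authors deposited, per array, scanner output of Agilent Feature Extraction 10.5.1.1 with the intensity of each spot and its local background, not normalized between arrays, and other columns that mark spots as well above background, saturated or non-uniform. They also deposited a log2 table, which matched the log2 processed signal less 1 constant per array, within 0.001 for at least 99.81% of values.

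With R 4.3.3 and limma 3.58.1, the median spot signal was background-corrected (normexp, offset 50), non-uniform spots (0.149% to 8.67% of an array) were set missing, arrays were quantile-normalized and spots of a probe averaged. Quantile normalization gives all arrays 1 distribution, so a shift of most genes would be removed. The 3 groups were fitted together with lmFit and eBayes, two-sided, and adjusted by Benjamini-Hochberg over all probes. The number of arrays, 3 per group, limits the precision. RefSeq named 31104 of the 58201 probes. The fit was tested on simulated data. Some genes of the lists enter the counts and medians but are not reported here by name.

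The 3 genes and all lists were chosen with earlier results of these data known. Lists are represented by the brightest probe of each gene. The genes named were all member probes, the 5 most similar genes of each, up to 4 called genes of each list and direction in HIF-1α knockdown, KISS1, GNAQ, GNA11, SASH1 and SASH3, the siRNA targets and the neighbours. A gene that was well above background nowhere in a group has a bound, from the brighter group's mean against, per array, the higher of its own signal and the lowest signal marked well above background. Such a bound is one of means and leaves out the spread between arrays. Alternatives were other background corrections and scalings, the log2 table, non-uniform spots kept, a filter on dim probes, 1 probe per gene, 6-array fits, a trended prior, the slide as a replicate block and each array left out. The r without the siHIF1A arrays was added after seeing the data.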

Additional observations from a re-analysis of the deposited data

How the results depend on the processing

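The falls of ANKRD37, KISS1R and the first SAMSN1 probe in HIF-1α knockdown chose the genes, so their range is a description and no sign of stability, and settings that change only the fit or leave out an siGATA3 array return the same value by construction. Over the 10 other settings they ranged from -2.78 to -2.69 for ANKRD37, -3.34 to -2.51 for KISS1R and -2.92 to -2.67 for SAMSN1, and with an array left out from -3.06 to -2.34, -2.74 to -2.10 and -2.90 to -2.54. KISS1R moved most with each array's processed signal set to its 75th percentile (-3.34) and in the deposited log2 table (-3.33), and the cause was not tested. In GATA3 knockdown no member probe was called under any alternative, and adjusted P was 0.591 or more throughout. With an array left out, ANKRD37 ranged from -0.79 to 0.32, turning positive without siGATA3 replicate 2 (0.32), KISS1R from -0.69 to -0.02, and the first SAMSN1 probe from -0.37 to 0.19, positive without siControl replicate 3 (0.04) and siGATA3 replicate 2 (0.19). The third SAMSN1 probe, near 0, turned positive with the 75th percentile after normexp (0.066) and with non-uniform spots kept (0.005222), and ranged from -0.74 to 0.066 over the other settings and from -0.12 to 0.15 with an array left out.

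Counts of called probes moved more. In GATA3 knockdown the 1827 calls became 4021 on the processed signal, 3824 in the log2 table, 1200 in 6-array fits and 3212 with the replicate block, and 1216 to 7546 with an array left out. The largest was without siControl replicate 3 and the smallest without siControl replicate 2, and there were 2820 without siGATA3 replicate 2. The share of calls that were lower was 43.8%, but 21.2% on the processed signal, 23% in the log2 table and 28.2% with the 75th percentile after normexp. With an array left out it ran from 35.6% (without siGATA3 replicate 2) to 59.9% (without siControl replicate 1), and more calls were lower than higher also without siControl replicate 2 (52.1%), siGATA3 replicate 1 (51.6%) and siGATA3 replicate 3 (56.7%). In HIF-1α knockdown the 3080 calls became 5048 with the replicate block and 1785 to 6101 with an array left out. The extremes were without siHIF1A replicate 1 and siControl replicate 1, and there were 1916 without siHIF1A replicate 3. The share lower was 64.3%, but 48.1% on the processed signal and 48.9% in the log2 table. It was 54.6% to 67.1% with an array left out. The 75th percentile after normexp moved the median of all probes to -0.11 there. The 30 HIF-1 targets called lower were 23 to 36 with an array left out and 29 to 35 under the other settings. On the other 3 lists the 4 genes called in HIF-1α knockdown became 8 with the replicate block and 3 to 9 with an array left out (9 without siControl replicate 1, 7 without siHIF1A replicate 2). On all 4 lists the 7 genes called in GATA3 knockdown became 3 with the 75th percentile after normexp, 4 in 6-array fits and 3 to 15 with an array left out (15 without siControl replicate 3, 3 without siGATA3 replicate 1, 4 without siGATA3 replicate 3).

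Not all arrays of the same number deviated together from their group means (r from -0.204 to 0.703 over the 9 same-numbered pairs). The block, which here is the slide, changed no member's call. It did give smaller SEs for ANKRD37, KISS1R and the first SAMSN1 probe, and more calls over all probes in both comparisons. Leaving 2 arrays in a group assumes that they vary like the others.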
